A study of Mus musculus with 9 samples.

Results

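Going by their names alone, the 86 genes described here encode, with 2 exceptions, protein subunits of the cytosolic ribosome in mouse kidney. They are the protein-coding rows whose names begin with Rpl or Rps followed by a subunit number or letter, leaving out the S6 kinases and names marked as pseudogenes, and they make up 86 of the 32593 gene rows. By name, 51 belong to the large subunit and 33 to the small subunit. The other 2, Rps19bp1 and Rps23rg1, matched the name pattern without being subunit genes: Rps19bp1 encodes a protein that binds the S19 subunit, and Rps23rg1 is a retrogene of Rps23. Of the 86 genes, 85 reached an FPKM of at least 1 (fragments scaled to gene length and library size) in at least 3 libraries and were tested. The gene left untested was Rpl39l, which in mouse is known as the germ-cell counterpart of Rpl39 and averaged 0.00889 FPKM.

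Kidney RNA was sequenced from 3 groups of 3 libraries, and every mouse had received AngII (angiotensin II, the peptide hormone that raises blood pressure). CDH16KO-AngII mice carried the genotype written CDH16 Cre+/Tmemfl/fl, GRPR-AngII mice the genotype CDH16 Cre+/GRPRfl/fl, and AngII mice the genotype Tmemfl/fl with no Cre. Cdh16 encodes a cadherin of kidney tubule epithelium, so a Cre driven by it acts in tubule cells while the other cells of a whole-kidney sample keep the floxed gene. No Cre-only group, no Cre-negative GRPRfl/fl group and no group without AngII was analysed here. Whether each library is a different animal is not stated, so p-values below measure the spread between libraries, which may be technical.

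Each ribosome is built from a single copy of nearly every subunit protein, and these genes are expressed together in all cells. Their mRNAs begin with an oligopyrimidine tract (the TOP motif), through which the mTORC1 kinase pathway controls their translation, so the rate of protein synthesis from them can change while the mRNA level does not. The genes are short, among the most abundant mRNAs of a cell, and have left many reverse-transcribed copies, called processed pseudogenes, across mammalian genomes. In kidney, ribosome content rises when tubule cells grow, and Rps6 is the substrate used to read S6 kinase activity.

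The shared promoter features are shown for 5 genes that the results below turn on or that contrast with each other. The sequences are from RefSeq on GRCm38.p6, cover 60 bases before and 30 bases from the annotated start, and are read in the direction of transcription. They lie at chr10:23787180-23787269 on the minus strand for Rps12, at chr4:86857338-86857427 on the minus strand for Rps6, at chr7:4792905-4792994 on the plus strand for Rpl28, at chr3:90213619-90213708 on the minus strand for Rps27, and at chr9:114982710-114982799 on the minus strand for its retrogene Rps27rt. Capitals mark matches to CTCTTT or CTTTCC on the strand shown, which reads as the RNA does. Matches may overlap each other.
Rps12: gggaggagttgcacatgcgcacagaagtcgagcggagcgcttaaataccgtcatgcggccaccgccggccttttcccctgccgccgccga
Rps6: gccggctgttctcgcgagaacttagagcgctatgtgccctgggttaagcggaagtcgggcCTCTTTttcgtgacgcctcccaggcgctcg
Rpl28: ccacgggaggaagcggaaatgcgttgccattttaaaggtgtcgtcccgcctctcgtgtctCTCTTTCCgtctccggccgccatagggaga
Rps27: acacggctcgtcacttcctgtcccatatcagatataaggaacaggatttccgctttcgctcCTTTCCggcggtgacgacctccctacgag
Rps27rt: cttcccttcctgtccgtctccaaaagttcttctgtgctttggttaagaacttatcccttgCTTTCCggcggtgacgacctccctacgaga

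In Rps6, Rpl28 and Rps27rt a match begins at the first transcribed base, and in Rps27 at the base after it. Rps12 holds neither motif in this window. The retrogene Rps27rt matched Rps27 over the 38 bases from its start without a mismatch, whereas only 8 of the 50 bases before that stretch (16%) were the same. Over the 66 of 86 genes with a RefSeq promoter there were 78 windows, since some genes have several starts. CTCTTT occurred on the strand that reads as the RNA within 50 bases of the start in 28.2% of windows, against 3.99% of all 32851 promoter windows. CTTTCC did so in 30.8%, against 4.69%. A C at the start followed by 4 bases that are C or T was found in 14 windows (17.9%), against 2.51% of all windows. CCGGAA, the core recognised by ETS-family factors, was present on either strand of the 300-base window in 47.4%, against 14.9%, and TATAAA in 8.97%, against 13.6%. These are counts of letters and not of bound factors.

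Total counts per library were 40731748 to 60449117. Genes encoded by mitochondrial DNA took 16.1% to 26.4% of the counts in CDH16KO-AngII libraries, 19.1% to 24.6% in GRPR-AngII libraries and 17.2% to 21.5% in AngII libraries. The summed level of 10 proximal tubule markers was 29884 to 37665 CPM (counts per 1e+06 counts, with TMM scaling) in CDH16KO-AngII libraries. It was 36989 to 55133 CPM in GRPR-AngII libraries and 37042 to 41037 CPM in AngII libraries. Sting1, the gene formerly named Tmem173 and taken here as the floxed Tmem gene, was at 2.15, 2.24 and 2.04 CPM in the CDH16KO-AngII libraries, 2.90, 2.90 and 2.68 CPM in the GRPR-AngII libraries and 4.62, 1.77 and 5.33 CPM in the AngII libraries, so AngII library 2 lay below the CDH16KO-AngII libraries. In whole kidney, fewer cells of a type and less RNA per cell cannot be told apart.

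Ribosomal protein genes were among the highest-expressed genes of the kidney: 51 of the 500 tested genes with the highest mean FPKM were members, and 83 members had a mean FPKM of at least 10. Rplp1, an acidic protein of the ribosomal stalk that recruits elongation factors, had the highest deposited level at 728 FPKM, followed by Rps15 at 641 FPKM and Rpl36 at 561 FPKM. Rpl19 stood at 351 FPKM and Rps2 at 296 FPKM. Apart from the paralogs and non-subunit rows, the 77 single-copy subunit genes ranged from 16.0 to 728 FPKM, a 45.5-fold spread around a median of 118 FPKM. The lowest of them in FPKM was Rps15a at 16.0 FPKM, a small subunit protein.

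Part of that spread lay in the length used for scaling. The deposited FPKM values divide by the union of all annotated exons of a gene (the length implied by FPKM and counts was about 1.2 times the union in GENCODE M21), and that union was 1 to 9.80 times the length of the mRNA, with a median of 2.35. Scaled to the length of the mRNA instead, the same 77 genes ranged from 51.6 to 972 CPM per kilobase, an 18.8-fold spread around a median of 328 CPM per kilobase. Rps15a, whose union of exons was 6270 bases against an mRNA of 640 bases, then stood at 189 CPM per kilobase. Rps15 led with 972 CPM per kilobase, and Rplp1 had 877 CPM per kilobase. The lowest was Rps20 with 51.6 CPM per kilobase, for which the annotated mRNA is 3706 bases long around a coding sequence of 357 bases. The lower end of the 18.8-fold spread is this gene alone, and the next of the 77 was Rpl21 with 102 CPM per kilobase. The medians of the 46 large and 31 small subunit genes were 321 and 342 CPM per kilobase.

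**Figure D1:**
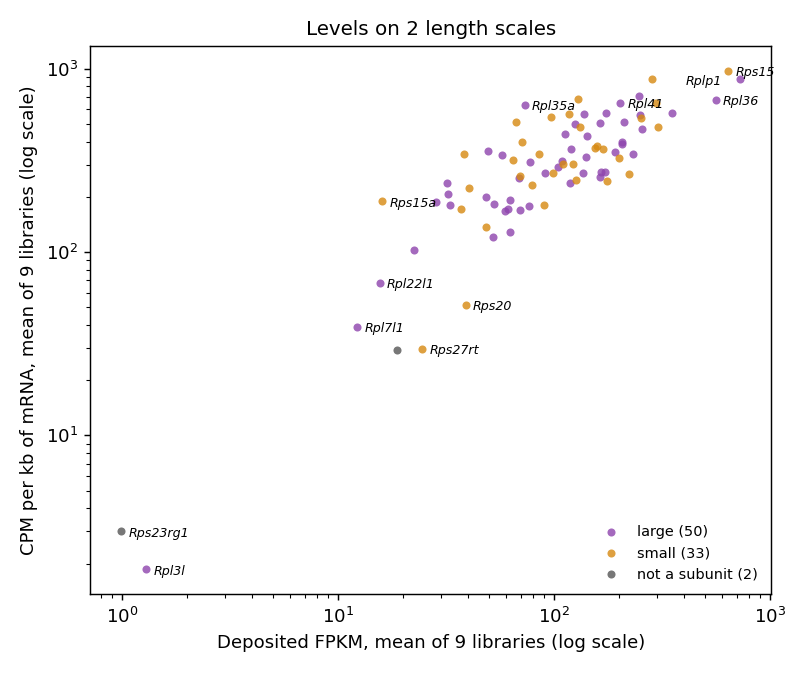
Mean level over 9 libraries of each gene above 0.5 FPKM, as deposited FPKM (horizontal, log scale) and as CPM per kilobase of mRNA (vertical, log scale), coloured by subunit. Most genes lie in 1 cloud, Rps15a and Rpl35a, whose unions of exons are long, sit left of it, and Rpl3l and Rps23rg1 lie far below it.

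Most paralogs lay far below their partners per kilobase of mRNA, as means over the 9 libraries. Rpl3l, the muscle counterpart of Rpl3, reached 1.86 CPM per kilobase, against 168 for Rpl3, and Rpl22l1 reached 67.9, against 237 for Rpl22. Rpl7l1, a relative of Rpl7, reached 39.2, against 291 for Rpl7, and the retrogenes Rps27rt and Rps23rg1 reached 29.6 and 3.01, against 482 for Rps27 and 326 for Rps23. Rps27l, a target of p53, stood at 248 CPM per kilobase, and Rpl36al lay close to its partner, at 193 against 201 for Rpl36a. None of these genes was called between groups. Rps27l had 115 ± 18.9 CPM in the CDH16KO-AngII group, 145 ± 28.3 CPM in the GRPR-AngII group and 110.5 ± 21.1 CPM in the AngII group (SD, n = 3 each). Rpl22l1 had 40.2 ± 9.86, 40.1 ± 10.7 and 31.6 ± 12.8 CPM in the same order of groups, and Rpl36al 93.6 ± 6.81, 116 ± 9.01 and 95.2 ± 16.7 CPM. The lowest of them, Rpl3l, had 3.02 ± 1.22, 2.63 ± 0.412 and 2.05 ± 0.423 CPM, and Rps23rg1 2.72 ± 0.479, 3.56 ± 1.12 and 3.74 ± 1.11 CPM. Rps27rt had 9.59 ± 2.44, 15.1 ± 7.40 and 8.84 ± 0.937 CPM, and Rps19bp1 25.4 ± 2.23, 25.9 ± 4.33 and 22.1 ± 4.58 CPM. Every one of these rows except Rpl36al, which did not overlap between GRPR-AngII and CDH16KO-AngII libraries, overlapped between each pair of groups.

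The genes moved together from library to library, and AngII library 1 was the lowest of all. Members took 2.09%, 2.19% and 1.84% of all counts in CDH16KO-AngII libraries 1 to 3, 2.42%, 2.21% and 1.99% in GRPR-AngII libraries, and 1.63%, 2.14% and 2.29% in AngII libraries. AngII library 1 was the lowest of the 9 libraries for 57 of the 85 tested members (67.1%), against 15.3% of all tested genes. GRPR-AngII library 1 had the highest value for 44 members (51.8%), against 9.31% of all tested genes. The median deviation of a member from its own mean over the 9 libraries was −0.34 on the log2 scale in AngII library 1 and 0.25 in GRPR-AngII library 1, while the other 7 libraries lay between −0.13 and 0.09. The group means of the share of counts, 2.04% ± 0.183 in CDH16KO-AngII, 2.21% ± 0.218 in GRPR-AngII and 2.02% ± 0.346 in AngII libraries, lay within 1 SD of each other (SD, n = 3 each).

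**Figure D2:**
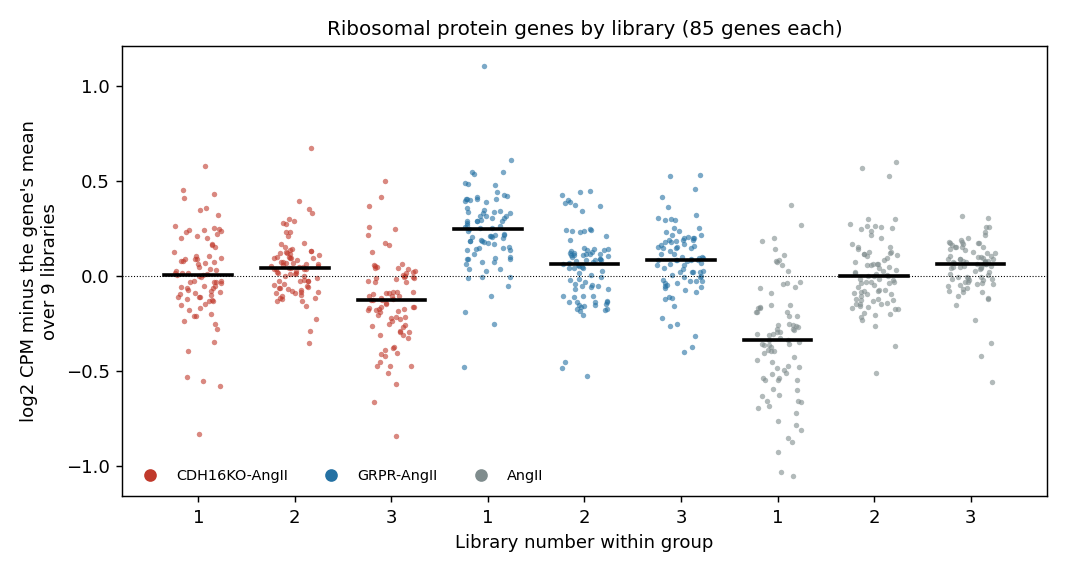
Deviation of each of the 85 tested genes from its own mean over 9 libraries (log2 CPM, vertical) in each library (horizontal), with the median as a black bar. The points of AngII library 1 centre at −0.34 and those of GRPR-AngII library 1 at 0.25, with the other libraries between −0.13 and 0.09.

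Other quantities were also at an extreme in these 2 libraries. The 5 erythroid markers (haemoglobin genes and Alas2, all tested and none at 0) summed to 516 to 734 CPM in the CDH16KO-AngII group, 140.0 to 1849 CPM in the GRPR-AngII group and 80.4 to 1239.9 CPM in the AngII libraries, with the lowest values in AngII library 1 (80.4 CPM) and GRPR-AngII library 1 (140.0 CPM). Transcript length moved too. In AngII library 1 the 43 members with an mRNA shorter than the median of 729 bases or equal to it averaged a deviation of −0.47, and the 42 longer ones −0.22. The 402 other coding genes of such short mRNAs had a median deviation of −0.26, against 0.03 for the 10268 longer ones. In GRPR-AngII library 1 the shorter members averaged 0.31 and the longer 0.17, and the other short genes 0.17. The part of length or of blood cells in the members' levels was not tested.

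Single genes were also described by their spread within groups. The median within-group SD of a member was 0.22 on the log2 scale, against 0.24 over all tested genes and 0.22 over 593 other genes of similar level. Once the mean of all members was subtracted in each library, it was 0.15. Taking away the mean of a set tends to lower its spread, and this was not done for the other genes. The steadiest gene was Rpl23a (SD 0.080), and the most variable was the retrogene Rps27rt (SD 0.50), which had 22.4, 7.64 and 15.1 CPM in the 3 GRPR-AngII libraries.

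The comparison of CDH16KO-AngII with AngII asks what the tubule Cre with floxed Tmem adds under AngII. No member passed the test of edgeR at an adjusted p of 0.05 (0 of 85, against 0.168% of all tested genes), 2 members (Rps3a1 and Rpl41) had an unadjusted p under 0.05 (8.45% of all tested genes did), and DESeq2 called none (1.68% of all tested genes). The median log2 fold change of the members was 0.06 and 56 of 85 were positive, against a median of 0.01 over all tested genes. Large and small subunit genes had medians of 0.05 and 0.08. For 81 of 85 members the 95% interval of the fold change stayed within 2-fold in either direction, and for 42 within 1.5-fold. Of the 12507 tested genes, 9979 and 5315 did so. Without AngII library 1 the median was −0.03 and 34 of 85 were positive, so the direction rested on that library.

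The libraries did not overlap for 3 members that were higher (6.65% of all tested genes) and 3 that were lower (5.5%). Higher were Rps12, Rpl26 and Rpl31, and lower were Rps3a1, Rpl41 and Rps24. Rpl41, which encodes a peptide of the subunit interface and is among the shortest coding genes known, had 238, 269 and 230.0 CPM in the CDH16KO-AngII group and 319, 326 and 302 CPM in the AngII libraries. All CDH16KO-AngII values lay below all AngII values. Its log2 fold change was −0.36 (SE 0.14, 95% interval −0.66 to −0.06, edgeR adjusted p = 0.530). Rps24, a subunit mutated in Diamond-Blackfan anaemia, averaged 249 ± 8.06 CPM in the CDH16KO-AngII group and 284 ± 25.4 CPM in the AngII libraries (SD, n = 3 each). Rpl31 averaged 294 ± 33.7 CPM in the CDH16KO-AngII group and 237 ± 28.6 CPM in the AngII libraries, and Rpl26 averaged 315 ± 20.7 CPM and 260.3 ± 44.3 CPM. In human cells, RPL26 is known to bind p53 mRNA besides its place in the ribosome. Of the other genes named by smallest p, Rpl28 had a log2 fold change of 0.31, Rps15 of 0.29, Rpl21 of 0.53, Rpl3 of −0.42, Rpl15 of −0.21, Rplp0 of −0.40 and Rps13 of −0.35, and none passed the test. Rpl28 at 578 ± 71.7 CPM against 466 ± 51.9 CPM and Rpl3, a protein close to the peptidyl transferase centre, at 196 ± 71.9 CPM against 263 ± 47.2 CPM show the spread behind these values (SD, n = 3 each).

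The comparison of GRPR-AngII with AngII differs both in the tubule Cre and in the floxed gene, since AngII mice carried Tmemfl/fl. Effects of the Cre, of floxed GRPR and of the mouse line cannot be told apart in it. Again no member passed (0 of 85; edgeR called 0% of all tested genes), and 5 members had an unadjusted p under 0.05 (6.74% of all tested genes did). DESeq2 called 1 member, Rps12, while calling 0.432% of all tested genes. The median log2 fold change was 0.21, against −0.01 over all tested genes, and 77 of 85 members were positive, including all 33 small subunit genes (median 0.26) and 43 of 50 large subunit genes (median 0.20). The fold change exceeded 1.5 in either direction for 2 members, beside 767 of the 12507 tested genes. Of 85 intervals, 80 stayed within 2-fold in either direction and 36 within 1.5-fold, beside 10272 and 5480 of the 12507. Without AngII library 1 the median was 0.10 and 65 of 85 were positive.

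Rps12, a small subunit protein that in the fly has been linked to competition between cells with unequal ribosomes, gave the smallest p of any member in this comparison. It had 224, 167 and 184 CPM in the GRPR-AngII libraries and 106, 139.8 and 132 CPM in the AngII libraries, so all GRPR-AngII values were above all AngII values. CDH16KO-AngII libraries lay between, at 156, 154 and 156 CPM. Its log2 fold change was 0.61 (SE 0.15, 95% interval 0.27 to 0.95) in GRPR-AngII over AngII with an edgeR adjusted p of 0.629. DESeq2 put it at an adjusted p of 0.0499, the lowest of a range of 0.0499 to 0.999 over the alternative settings.

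Rpl32, of the large subunit, had 334, 317 and 353 CPM in the GRPR-AngII libraries and 236, 280.4 and 271 CPM in the AngII libraries. The groups did not overlap, and the log2 fold change was 0.35 (SE 0.13, edgeR adjusted p = 0.732). Rpsa, a small subunit protein also described as a laminin receptor, had 738, 604 and 665 CPM in the GRPR-AngII group and 513, 523 and 557 CPM in the AngII libraries, with a log2 fold change of 0.33 (SE 0.14, edgeR adjusted p = 0.732) and again no overlap. In all, 10 members were higher without overlap (6.85% of all tested genes) and 0 were lower (7.2%). Rpl23, Rpl37a, Rpl6, Rplp1, Rps12, Rps2 and Rps23 were also among the 10. Rplp1 averaged 491 ± 38.4 CPM in the GRPR-AngII group and 381 ± 76.0 CPM in the AngII libraries, and Rps2 685 ± 9.96 CPM and 624 ± 56.3 CPM (SD, n = 3 each). Rps27rt was also among the members with an unadjusted p under 0.05, with a log2 fold change of 0.77, and it overlapped between groups.

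Few members were lower in GRPR-AngII than in AngII libraries, and each of them overlapped between the groups. Rpl3 averaged 216 ± 38.8 CPM in the GRPR-AngII group and 263 ± 47.2 CPM in the AngII libraries, Rpl4 395 ± 84.6 CPM and 439.6 ± 44.8 CPM, and Rpl5 246 ± 57.8 CPM and 263 ± 31.3 CPM (SD, n = 3 each). Rpl3 and Rpl4 join the large subunit early in its assembly, and Rpl5 binds MDM2 as part of the particle that carries 5S RNA. Their log2 fold changes were −0.29, −0.15 and −0.09, beside −0.14 for Rpl41. Rpl30 and Rpl7a, at −0.17 each, are taken up with the pseudogene copies below. Rps6 showed no separation of the groups: it had 356, 334 and 312 CPM in the GRPR-AngII group, 305, 339 and 282 CPM in the CDH16KO-AngII group and 311, 320.2 and 329.7 CPM in the AngII libraries. Its 95% interval was −0.23 to 0.35 for GRPR-AngII over AngII and −0.35 to 0.24 for CDH16KO-AngII over AngII on the log2 scale.

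**Figure D3:**
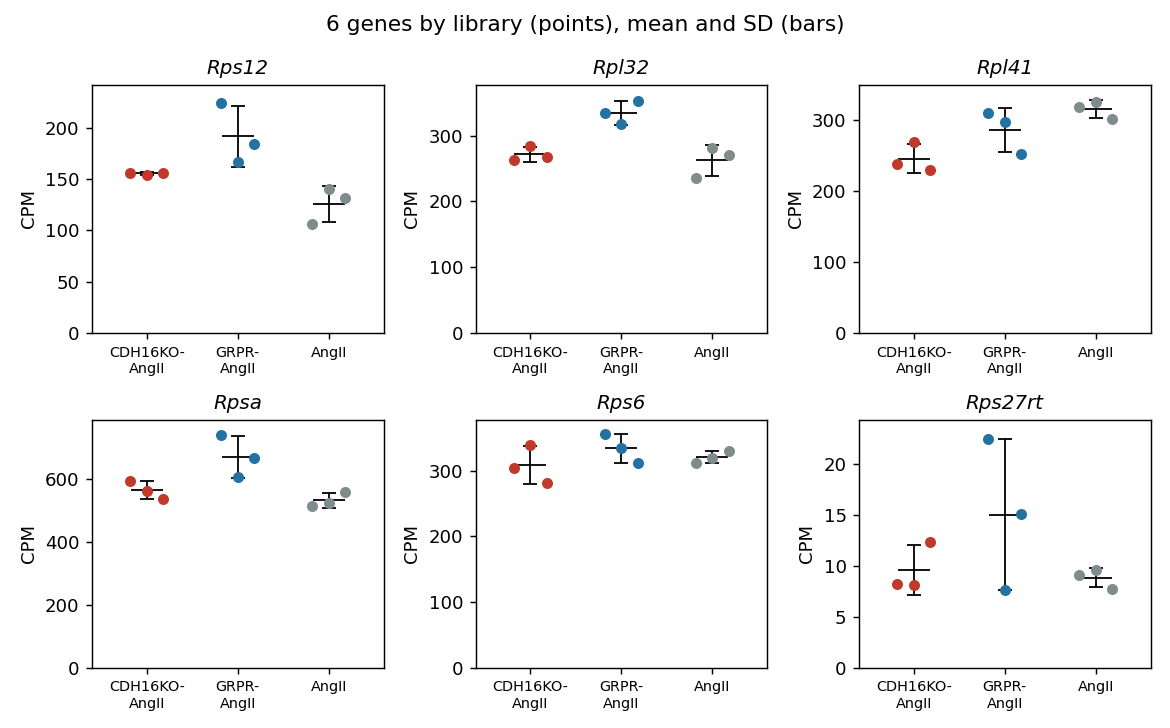
CPM of 6 members in each library (points), with the mean and SD of each group of 3 (bars), CDH16KO-AngII, GRPR-AngII and AngII from left to right. Rps12, Rpl32 and Rpsa are highest in GRPR-AngII libraries. Rpl41 is lower in CDH16KO-AngII than in AngII libraries but overlaps between CDH16KO-AngII and GRPR-AngII. Rps6 overlaps between groups, and Rps27rt spreads from 7.64 to 22.4 CPM within GRPR-AngII.

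Between the Cre-carrying groups, GRPR-AngII against CDH16KO-AngII, no member passed the test of edgeR (0 of 85, against 0.144% of all tested genes), 3 had an unadjusted p under 0.05 (6.24% of all tested genes) and DESeq2 called 1, Rps3a1 (1.4% of all tested genes). The median log2 fold change was 0.14, against −0.01 over all tested genes, with 76 of 85 positive. Both groups carried the Cre. Each pair of the comparisons shares a group of libraries, so their values are not independent. Without GRPR-AngII library 1 the median was 0.09 and 63 of 85 were positive. A total of 15 members were higher without overlap (4.66% of all tested genes) and 0 lower (5.3%). Among them were Rpl13, Rpl18, Rpl23, Rpl32, Rpl36al, Rpl37a, Rps12, Rps13, Rps16, Rps19, Rps23, Rps24, Rps3a1 and Rpsa.

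The genes of smallest p here were Rps3a1, with a log2 fold change of 0.68 (edgeR adjusted p = 0.345; DESeq2 0.0487, over a range of 0.0487 to 0.996), Rps13 with 0.50, Rpl32 with 0.30, Rps24 with 0.28, Rplp0 with 0.42 and Rpl36al with 0.30. Rps24 had 315, 307 and 285 CPM in the GRPR-AngII group and 239.7, 253 and 254 CPM in the CDH16KO-AngII libraries, without overlap. Rps16, also of the small subunit, averaged 302 ± 22.5 CPM in the GRPR-AngII group and 257 ± 13.9 CPM in the CDH16KO-AngII libraries (SD, n = 3 each). In the other direction the members of smallest p were Rpl7a, Rpl3l, Rpl17, Rps27, Rpl21 and Rpl14, with log2 fold changes of −0.18, −0.20, −0.09, −0.04, −0.04 and −0.03, and every 95% interval included 0. The plot of fold changes by comparison shows the whole family.

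**Figure D4:**
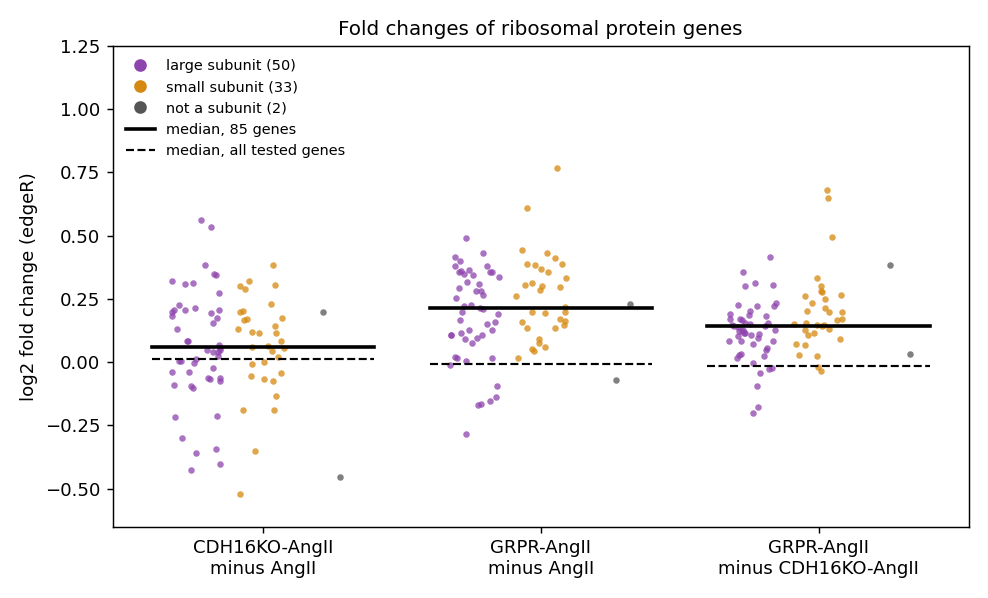
Log2 fold change of each tested member (edgeR, vertical) in the 3 comparisons (horizontal), coloured by subunit, with the median of the 85 genes (solid) and of all tested genes (dashed). The members' medians are 0.06, 0.21 and 0.14, and those of all tested genes 0.01, −0.01 and −0.01.

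In some CDH16KO-AngII libraries, counts of 3 of these genes were divided differently between the gene and its processed pseudogenes. These were all 3 libraries for Rplp0, and libraries 2 and 3 for Rps3a1 and Rps13. The fold changes of Rps3a1, Rplp0 and Rps13 between CDH16KO-AngII and each other group were smaller in size with the copies counted. Across the family, 477 pseudogene rows shared at least 95% identity over at least 50% of a member's mRNA, and they belonged to 64 of the 86 members. The sequences of 3 members and of a copy each show how alike they are. They are coding windows of 60 bases from the GENCODE M21 transcripts on GRCm38, chosen where the pair differs most, with differing bases in capitals. Rplp0 lies at chr5:115559467-115563727 on the plus strand and its copy window of Gm8730 at chr8:102865352-102865411 on the minus strand. Rps3a1 lies at chr3:86137940-86142702 on the minus strand and its copy window of Rps3a3 at chr13:108670803-108670862 on the plus strand. Rps13 lies at chr7:116331505-116334195 on the minus strand and its copy window of Rps13-ps1 at chr8:87048089-87048148 on the plus strand.
Rplp0: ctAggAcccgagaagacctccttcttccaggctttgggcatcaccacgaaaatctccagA
Gm8730: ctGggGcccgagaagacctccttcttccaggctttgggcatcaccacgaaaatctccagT
Rps3a1: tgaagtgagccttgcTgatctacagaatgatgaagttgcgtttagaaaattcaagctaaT
Rps3a3: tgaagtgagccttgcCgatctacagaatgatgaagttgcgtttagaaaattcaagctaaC
Rps13: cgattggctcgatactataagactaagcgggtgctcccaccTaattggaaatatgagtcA
Rps13-ps1: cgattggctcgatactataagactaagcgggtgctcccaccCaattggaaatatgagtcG

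Over the whole coding sequence, Gm8730 differed from Rplp0 at 12 of 951 bases, Rps3a3 from Rps3a1 at 8 of 791 aligned bases, a further copy, Rps3a2, at 4 of 792 bases, and Rps13-ps1 from Rps13 at 2 of 453 bases. Each of these copies is a single exon. A read from a stretch without any difference cannot be assigned to one or the other by its letters, so counts of such pairs are uncertain. The sources used here do not give how such reads were counted.

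Rplp0 encodes the central protein of the ribosomal stalk and is widely used as a reference gene in quantitative PCR. Its own row had 309.7, 497 and 331 CPM in the CDH16KO-AngII libraries, 483, 591 and 445 CPM in the GRPR-AngII libraries and 489, 544 and 470.1 CPM in the AngII libraries. Its 4 pseudogene rows together had 141, 71.0 and 64.2 CPM in the CDH16KO-AngII libraries, against 12.3, 10.1 and 9.60 CPM in the GRPR-AngII group and 9.85, 11.3 and 7.70 CPM in the AngII libraries. The copies thus held 31.4%, 12.5% and 16.2% of the sum in CDH16KO-AngII libraries and 1.61% to 2.48% in the other 6. Nearly all of it was Gm8730 (chr8:102864845-102865798), with 133, 63.2 and 57.6 CPM in the CDH16KO-AngII libraries, 8.19, 6.90 and 6.59 CPM in the GRPR-AngII libraries and 5.65, 8.14 and 4.71 CPM in the AngII libraries. Its row rose 13.7-fold in CDH16KO-AngII over AngII (log2 fold change 3.78, SE 0.34, edgeR adjusted p = 0.00330), and all 3 libraries lay above all others. The call was lost without AngII library 1 (log2 fold change 3.72, edgeR adjusted p = 0.0559, the highest over the alternative settings, with 4.42e-29 in DESeq2 the lowest). In GRPR-AngII against CDH16KO-AngII its row fell by 3.55 on the log2 scale (edgeR adjusted p = 0.00444), a call lost without GRPR-AngII library 1 (log2 fold change −3.65, edgeR adjusted p = 0.0505, in a range of 2.02e-25 to 0.0505). With the copies added, Rplp0 had 451, 568 and 395 CPM in the CDH16KO-AngII group, 495, 601 and 454 CPM in the GRPR-AngII group and 499, 555 and 478 CPM in the AngII libraries. The log2 fold change of CDH16KO-AngII over AngII was −0.11 (95% interval −0.50 to 0.28) for the sum, against −0.40 for the gene alone.

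Rps3a1 encodes a small subunit protein near the exit of the mRNA channel. Its row had 232, 207 and 141 CPM in the CDH16KO-AngII libraries, 321, 339.6 and 269 CPM in the GRPR-AngII libraries and 246, 311 and 275 CPM in the AngII libraries. Its 6 pseudogene rows had 5.64, 158 and 118 CPM in the CDH16KO-AngII libraries, 8.17, 8.64 and 5.15 CPM in the GRPR-AngII libraries and 5.03, 6.92 and 7.47 CPM in the AngII libraries. CDH16KO-AngII libraries 2 and 3 were high and library 1 was not. The copies held 43.4% and 45.6% of the sum in those 2 libraries and 1.88% to 2.65% in the other 7. Rps3a3 had 83.6 and 79.6 CPM and Rps3a2 63.9 and 34.3 CPM in them, and neither row passed the test of edgeR over all 3 libraries (adjusted p = 0.130 and 0.180 against AngII), while DESeq2 called both. With the copies added, the log2 fold change of Rps3a1 was 0.02 (95% interval −0.40 to 0.43) in CDH16KO-AngII over AngII, against −0.52 for the gene alone, and 0.14 (−0.27 to 0.56) in GRPR-AngII over CDH16KO-AngII, against 0.68. The gene alone is the one DESeq2 called in the second of these.

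For Rps13 the same libraries stood apart. Its row had 119, 109 and 89.7 CPM in the CDH16KO-AngII libraries, 169, 149.9 and 129.6 CPM in the GRPR-AngII libraries and 105, 153 and 147 CPM in the AngII libraries, and its 5 pseudogene rows had 6.88, 58.5 and 45.9 CPM, 11.9, 24.6 and 19.6 CPM, and 9.94, 12.4 and 11.05 CPM in that order of groups. Rps13-ps1 had 2.34, 50.1 and 40.8 CPM in the CDH16KO-AngII libraries, most of the copies' counts in libraries 2 and 3. The copies held 5.46%, 34.9% and 33.9% of the sum in the CDH16KO-AngII libraries. They held 6.57%, 14.1% and 13.1% in GRPR-AngII libraries and 8.62%, 7.52% and 6.99% in AngII libraries. For the sum the log2 fold change was −0.03 in CDH16KO-AngII over AngII, against −0.35 for the gene alone, and 0.23 in GRPR-AngII over CDH16KO-AngII, against 0.50. In Rpl29, picked after its values were seen, CDH16KO-AngII library 1 stood out instead. The row of the gene had 105 CPM there and 166 to 269 CPM in the other 8 libraries, while its 25 pseudogene rows had 154 CPM there and 52.7 to 65.5 CPM elsewhere. The sum, 259 CPM, lay inside the range of the others (225 to 329.9 CPM). For Rpl29 the log2 fold change of CDH16KO-AngII over AngII was 0.23 for the sum, against 0.05 for the gene alone. Rps15a, also taken up after its copies were seen, had a smaller shift in CDH16KO-AngII libraries 2 and 3. Its copies held 13.8% and 11.5% of the sum there and 1.23% to 2.44% in the other libraries. Its log2 fold change of CDH16KO-AngII over AngII was 0.15 for the sum, against 0.02 for the gene alone.

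**Figure D5:**
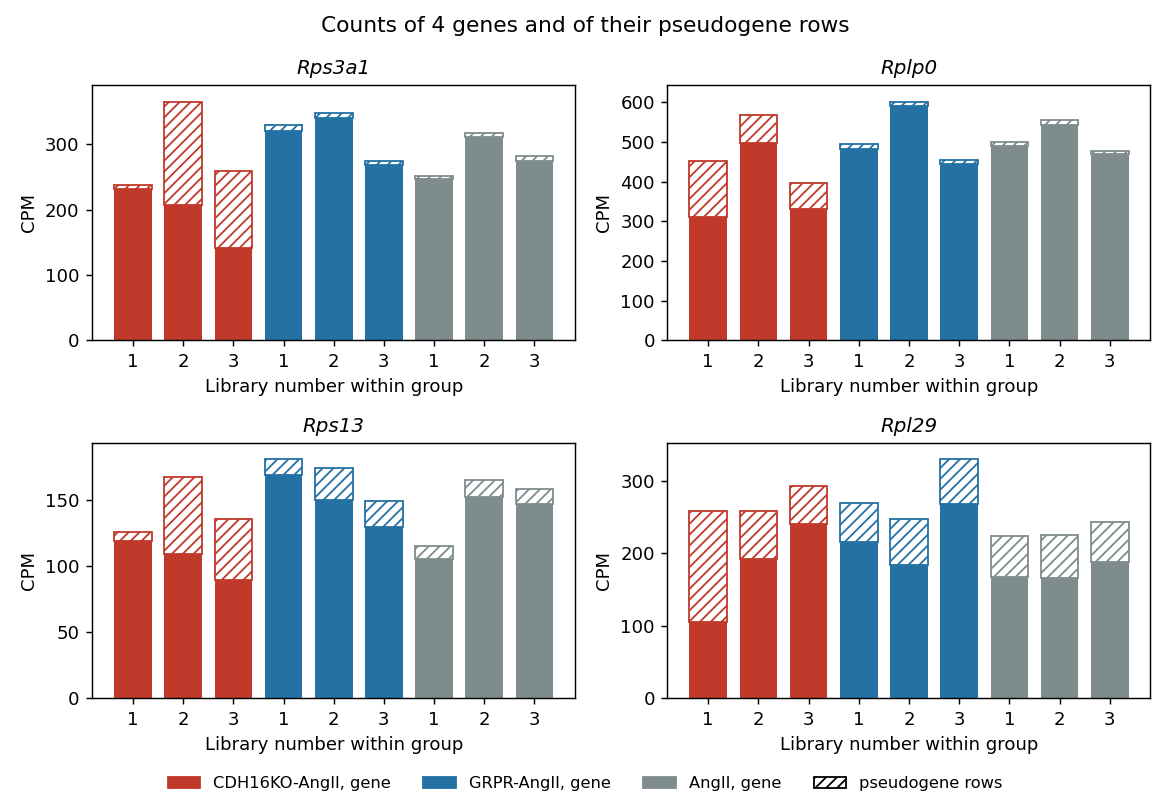
CPM of the gene (filled) and of its pseudogene rows (hatched, stacked on top) in each library for Rps3a1, Rplp0, Rps13 and Rpl29, with CDH16KO-AngII, GRPR-AngII and AngII libraries from left to right. The hatched part is large in CDH16KO-AngII libraries 2 and 3 for Rps3a1 and Rps13, in all 3 for Rplp0 and in library 1 for Rpl29.

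Of the 237 pseudogene rows of members that were tested, edgeR called 1 in CDH16KO-AngII against AngII, Gm8730, beside 0.168% of all tested genes, and 18 had an unadjusted p under 0.05, beside 8.45%. In GRPR-AngII against AngII edgeR, DESeq2 and limma called 0 of these rows, beside 0%, 0.432% and 0% of all tested genes, and 11 had an unadjusted p under 0.05 in edgeR, beside 6.74%. In GRPR-AngII against CDH16KO-AngII edgeR called 2, Gm8730 and Gm6278, beside 0.144%, and 12 had an unadjusted p under 0.05, beside 6.24%. DESeq2 called 7 of the rows in CDH16KO-AngII against AngII and 5 in GRPR-AngII against CDH16KO-AngII, beside 1.68% and 1.4% of all tested genes. Among the 7 were Rps15a-ps3, Rps15a-ps6 and Rps15a-ps7. In the same comparisons limma called 2 each, Gm8730 and Gm6278, beside 0.2% and 0.136% of all tested genes on log2(FPKM + 1) and 0.168% and 0.12% on log2(FPKM + 0.1). Gm6278, a further copy of Rplp0 at 6.50, 6.55 and 5.75 CPM in the CDH16KO-AngII group, 2.62, 1.83 and 1.71 CPM in the GRPR-AngII group and 2.25, 1.90 and 2.39 CPM in the AngII libraries, lost its call in GRPR-AngII against CDH16KO-AngII whichever library was left out. Its log2 fold change was then −1.82 to −1.48 (edgeR adjusted p = 0.0693 to 0.198), against −1.61 with all libraries (edgeR adjusted p = 0.0440, DESeq2 5.91e-07). What sets the division of counts between a gene and its copies was not tested.

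For some other members the copies held large parts of the counts in every library. The pseudogene rows had 279.9% of the counts of the gene for Rpl21 (51 rows), 272% for Rpl17 (22 rows) and 263% for Rpl7a (34 rows), and for Rpl23a and Rps12 they held 70.6% and 68.1% of the gene's counts. The median over the 64 members with such rows was 5.81%. Rpl21 had 113, 79.5 and 119 CPM in the CDH16KO-AngII group and 52.3, 62.2 and 100.1 CPM in the AngII libraries for the gene alone, a log2 fold change of 0.53 that was 0.20 for the sum. In Rpl30, AngII library 2 stood apart: its copies held 4.49% of the sum, against 21.9% to 42.2% in the other libraries, and the log2 fold change of GRPR-AngII over AngII was 0.14 for the sum against −0.17 for the gene alone. In Rps12 the copies held 38.0% to 45.2% of its sum in all libraries, and the log2 fold change of GRPR-AngII over AngII was 0.58 (95% interval 0.21 to 0.94) for the sum against 0.61 for the gene.

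With the copies added to all members, no member passed the test of edgeR in any comparison, and the smallest adjusted p was 0.529, 0.638 and 0.753 in the order of the comparisons above. The fold changes of the family lay closer together: their SD over the 85 members was 0.18 for CDH16KO-AngII against AngII, where it had been 0.22 for the genes alone, 0.16 against 0.18 for GRPR-AngII over AngII, and 0.11 against 0.14 for GRPR-AngII over CDH16KO-AngII. The medians were 0.07, 0.21 and 0.13. The log2 fold change of 6, 3 and 5 members moved by more than 0.2. Members at an unadjusted p under 0.05 in edgeR then included Rpl41 in CDH16KO-AngII against AngII, Rpl32, Rps12, Rps27rt and Rpsa in GRPR-AngII against AngII, and Rpl32 in GRPR-AngII against CDH16KO-AngII.

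The members are spread over 19 chromosomes, with 14 on chromosome 7 and 8 each on chromosomes 9 and 17. The spans of 30 members overlap 59 annotated genes of small nucleolar RNAs or the related small Cajal body RNAs, 3 of them in Rps12. Small nucleolar RNAs guide chemical modification of ribosomal RNA. The overlap was counted on either strand, and a place in an intron was not checked. An annotated coding gene lies on the opposite strand over part of 16 members and on the same strand over 4, and the sources used here do not say whether counting used strand. In each comparison the shorter members had the larger medians, 0.13 against 0.04 for longer ones in CDH16KO-AngII over AngII, 0.31 against 0.17 in GRPR-AngII over AngII, and 0.15 against 0.13 in GRPR-AngII over CDH16KO-AngII. Other coding genes with mRNAs as short had medians of 0.10, 0.15 and 0.05 in the same order. Across the 85 members the Pearson correlation of the log2 fold change with log2 mRNA length was −0.24, −0.37 and −0.09 in the same order, given as a description since the genes share their libraries.

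Lists of genes that work with the ribosome differed from each other in direction. Fau and Rack1, which encode small subunit proteins outside the name pattern, had log2 fold changes of −0.11 and 0.09 in CDH16KO-AngII over AngII and of 0.20 and 0.27 in GRPR-AngII over AngII. Rack1, also known as a scaffold for protein kinase C, averaged 347 ± 17.8 CPM in the GRPR-AngII group and 288 ± 35.2 CPM in the AngII libraries (SD, n = 3 each). The medians for CDH16KO-AngII over AngII, GRPR-AngII over AngII and GRPR-AngII over CDH16KO-AngII were −0.05, −0.03 and 0.03 for 46 initiation factors, −0.13, 0.09 and 0.14 for 15 elongation and termination factors, and −0.03, 0.01 and 0.00 for 104 ribosome assembly factors. They were 0.01, 0.06 and −0.02 for 24 regulators of mTORC1 and TOP mRNAs, and −0.01, 0.05 and 0.08 for 78 mitochondrial ribosomal protein genes. In GRPR-AngII over CDH16KO-AngII, 14 of the 15 elongation and termination factors were positive, beside 76 of 85 members and 5926 of 12507 tested genes. So were 58 of 78 mitochondrial ribosomal protein genes, 31 of 46 initiation factors, 53 of 104 assembly factors and 11 of 24 regulators. Of the 15 elongation and termination factors, 10 were positive in GRPR-AngII over AngII and 5 in CDH16KO-AngII over AngII. No gene of these lists passed the test of edgeR in any of the comparisons (0.168%, 0% and 0.144% of all tested genes did, in the order of the medians). From 0 to 7 per list and comparison had an unadjusted p under 0.05 in edgeR, beside 8.45%, 6.74% and 6.24% of all tested genes. The 7 were among the 104 assembly factors in CDH16KO-AngII against AngII. DESeq2 called Riok3, Nop9, Eif4g3 and Mrps27 in CDH16KO-AngII against AngII (1.68% of all tested genes). It called Nop9 in GRPR-AngII against AngII (0.432%), and Riok3, Utp20 and Mrps27 in GRPR-AngII against CDH16KO-AngII (1.4%). Limma called none, beside 0% to 0.2% of all tested genes. The smallest adjusted p was that of Riok3, a kinase of small subunit maturation, at 106 ± 4.54 CPM in the CDH16KO-AngII group and 64.3 ± 9.17 CPM in the AngII libraries (log2 fold change 0.72, edgeR adjusted p = 0.110, DESeq2 0.000636), with 64.5 ± 5.72 CPM in the GRPR-AngII libraries. Mrps27, a mitochondrial small subunit gene, averaged 17.6 ± 2.08 CPM in the CDH16KO-AngII group, 26.8 ± 0.853 CPM in the GRPR-AngII group and 26.1 ± 1.93 CPM in the AngII libraries, with a log2 fold change of −0.57 for CDH16KO-AngII over AngII (edgeR adjusted p = 0.209, DESeq2 0.0126).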

How the data were processed

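Kidney RNA was sequenced in 9 libraries. An RNeasy kit and a SMARTER mRNA-Seq library kit were used, per the labels' protocols. GRCm38 and mm10 are the builds in the submitters' processing notes. For the aligner, the counter, their settings and the use of strand, the sources used here give nothing. Per the file headers, the deposited table holds FPKM and a count for each gene and library. The deposited counts were whole numbers and were treated as estimated counts that the authors may have rounded. They entered the tests as they stand.

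A gene was tested if its FPKM reached 1 in 3 or more libraries (12507 genes). The test was edgeR's quasi-likelihood F test (edgeR 4.0.16, R 4.3.3), in 1 fit of all 9 libraries with TMM scaling, library sizes equal to column totals, no block, and Benjamini-Hochberg adjustment over all tested genes. A call is an adjusted p under 0.05. The standard error is the absolute log2 fold change over the root of F. Alternatives used DESeq2 1.42.0 and limma 3.58.1. The script was tested on simulated data. Members, gene lists and tests were chosen with earlier results of these data known. Genes named by rule were any called member, the 6 members of smallest p per direction and comparison, the 6 highest and 6 lowest in mean FPKM, paralogs with their partners, the stalk genes, Rps6 and Rpsa, and up to 3 genes of smallest p per other list. Pseudogene rows, Rpl29, Rps16, and members listed for groups that did not overlap were named after their values were seen. Results of a few genes are not reported here by name.

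Lengths, overlaps and copies came from GENCODE M21 on GRCm38, in which 73 members have the deposited coordinates. Copies were found with BLAST+ 2.17.0 against annotated transcripts (at least 95% identity over at least 50% of the mRNA), and each pseudogene row was given to the 1 member it covered best. Promoters came from RefSeq on GRCm38.p6. Chi-square tests of the library pairs within each group found no library deposited again under another name. Pairs of libraries from different groups were not tested in this way. Python 3.11.15 with matplotlib 3.10.9 drew the figures.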

Additional observations from a re-analysis of the deposited data

How the results depend on the processing

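The results were recomputed under 12 alternative settings and 9 fits that each left out 1 library. No member was called by edgeR or limma under any of them. DESeq2 called 1 member (Rps12) in GRPR-AngII against AngII and 1 member (Rps3a1) in GRPR-AngII against CDH16KO-AngII. With mitochondria-coded genes left out of the total, the members' share of counts was 2.62% in CDH16KO-AngII, 2.79% in GRPR-AngII and 2.48% in AngII libraries, since the total is smaller. Leaving out 1 library at a time, the members' median log2 fold change ranged from −0.03 to 0.12, 0.10 to 0.27 and 0.09 to 0.19 in CDH16KO-AngII over AngII, GRPR-AngII over AngII and GRPR-AngII over CDH16KO-AngII, and members called ranged from 0 to 0. The replicate block gave medians of 0.07, 0.21 and 0.15 with 0 members called. The replicate numbers were not taken to pair the libraries, since same-numbered libraries' deviations over all genes correlated at −0.10 to 0.09 for number 1, though at 0.11 to 0.24 for numbers 2 and 3. As a hint from the data and not the design, same-numbered CDH16KO-AngII and GRPR-AngII libraries correlated at 0.56, 0.72 and 0.63 over the members, against −0.58 to −0.07 for different numbers, but not every library correlated best with its own number (CDH16KO-AngII and AngII libraries 1 at −0.48). The call of the Rplp0 copy Gm6278 in GRPR-AngII over CDH16KO-AngII was also ended by the block (log2 fold change −1.63, edgeR adjusted p = 0.0720), by fitting 2 groups only (−1.61, 0.125) and by an FPKM filter of 0.1 (−1.60, 0.0535). No member was called without the block, so it had no call of a member to end. With the block, 6, 6 and 6 members had an unadjusted p under 0.05 in edgeR. Of the 12507 tested genes, 1642, 1270 and 1051 did so, in the same order of comparisons as the medians.

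Adding the pseudogene counts to the members, an alternative chosen after seeing the data, turned the sign of the log2 fold change of Rps3a1 (0.0194), Rpl15 (0.00026), Rps10 (−0.0065) and Rpl6 (−0.013) in CDH16KO-AngII over AngII, of Rpl30 (0.14), Rpl7a (0.0841), Rpl15 (0.0816) and Rpl23a (−0.0029) in GRPR-AngII over AngII, and of Rpl7a (0.0404), Rpl17 (0.0283), Rpl21 (0.0210) and Rpl14 (0.000336) in GRPR-AngII over CDH16KO-AngII. Without a filter Rpl14 was at 0.0035 in that comparison. Among the genes named by smallest p, leaving out 1 library turned the sign within −0.363 to 0.0651 for Rpl30, −0.523 to 0.00297 for Rpl7a and −0.302 to 0.0317 for Rpl5 in GRPR-AngII over AngII. In GRPR-AngII over CDH16KO-AngII it did so within −0.497 to 0.0349 for Rpl3l, −0.448 to 0.162 for Rpl17, −0.161 to 0.0503 for Rps27, −0.202 to 0.107 for Rpl21 and −0.14 to 0.13 for Rpl14. None of these values was called, and the cause was not tested.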
